A study of Drosophila melanogaster with 3 samples.

Results

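The 10 genes described here encode insulator proteins of Drosophila melanogaster: CTCF, su(Hw), BEAF-32, Cp190, mod(mdg4), pita, ZIPIC, dwg, Ibf1 and Ibf2. They were chosen by name, and all 10 were found among the 13945 protein-coding genes of the Ensembl annotation on the long chromosome arms and chromosome 4. A peak was assigned to a gene when its summit lay in the gene or within 2 kb of it. Of the 7769 peaks that passed the authors' irreproducible discovery rate (IDR) procedure, which scores how well peak ranks recur between replicates, 5 met that rule at an insulator protein gene. The values concern binding of D19A at these genes and not binding by the insulator proteins.

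Insulators are DNA elements that limit contacts between enhancers and promoters and mark borders of chromatin domains. In flies they are bound by sequence-specific proteins, here CTCF, su(Hw), BEAF-32, pita, ZIPIC, dwg (also called Zw5), Ibf1 and Ibf2, which bring in cofactors such as Cp190 and mod(mdg4), proteins with a BTB domain. The proteins encoded by pita, ZIPIC and dwg carry a zinc finger-associated domain (ZAD), as does D19A, the protein whose binding was measured.

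Chromatin was immunoprecipitated from whole Drosophila embryos of mixed sex, aged 0 to 20 h, in 3 biological replicates of a transgenic line with stable expression of D19A carrying GFP at the C-terminus. The labels describe an antibody against GFP, although their antibody field names D19A, and fragments spanned 200 to 800 bp. All 3 replicates form 1 group with no second genotype, treatment or time, so no test between conditions was possible. The authors deposited a list of 30000 peaks for each replicate, a list of 30000 from the replicates pooled, and the IDR list. The files hold no read counts, so depth is unknown. Peaks were ranked within their own list by the authors' signal value, rank 1 being the highest. The IDR list was the same as the 7769 strongest peaks of the pooled list, in position and summit, so its ranks are pooled ranks. Of the IDR peaks, 7513 were overlapped by a peak of every replicate, 235 by peaks of 2 replicates, 20 by a peak of 1 and 1 by none. The labels do not say which cells of the embryo express the fusion protein.

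D19A peaks were present at 5 of the 10 insulator protein genes in the IDR list: Cp190, mod(mdg4), BEAF-32, CTCF and pita. Over all protein-coding genes the share was 38.2%. With the summit required within 250 bp of a transcription start site (TSS) of the gene itself, 3 of the 10 remained, Cp190, BEAF-32 and CTCF, against 15.3% of all protein-coding genes. In the longer pooled list 6 of the 10 genes had a summit in range, with su(Hw) added, against 55.5% of all genes, and 5 had one within 250 bp of their own TSS, with mod(mdg4) and pita added, against 31.0%. No summit of any of the 5 lists lay in or within 2 kb of ZIPIC and dwg, as for 33.8% of all protein-coding genes. These shares are set side by side as a description, with no test, since the genes were not drawn at random and 10 genes resolve shares coarsely.

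**Figure D1:**
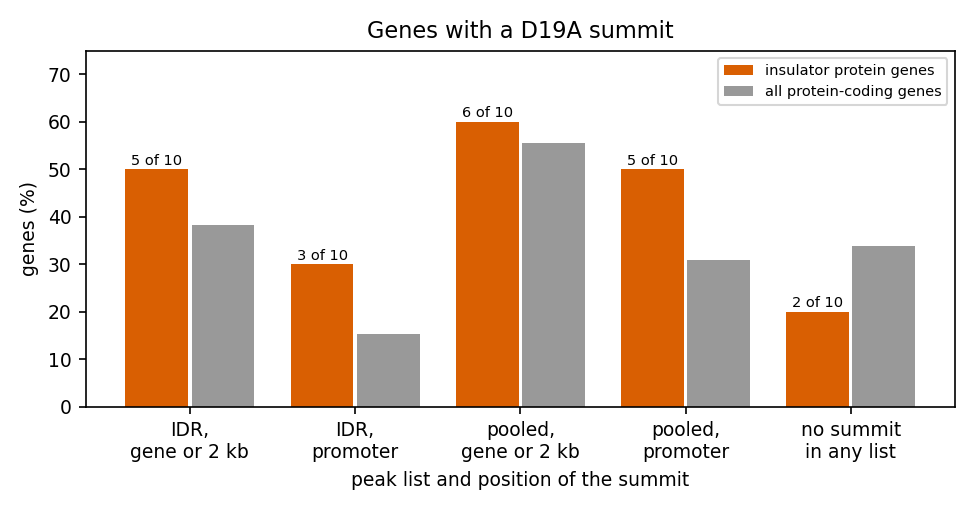
Share of genes (%) with a D19A summit, for the 10 insulator protein genes (orange) and all 13945 protein-coding genes (grey), by peak list and position of the summit. The number of insulator protein genes stands above each orange bar, and 5 of 10 had an IDR summit in the gene or within 2 kb, against 38.2% of all genes.

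Sequence in 6 windows at these genes shows what lies under the strong, the weak and the absent peaks. The windows between Cp190 and CG4338 (chr3R:15275278-15275478) and between mod(mdg4) and tin (chr3R:21378646-21378846) are centred on IDR summits. The window between su(Hw) and Polr2I (chr3R:14308779-14308979) is centred on a pooled summit outside the IDR list, and that between Ibf2 and Ibf1 (chr3R:9258632-9258832) on the middle of their shared gap, where no pooled peak lay. A weak peak of replicate 2 (rank 20494) overlapped the window between Ibf2 and Ibf1, with its summit outside the window. The other windows lie directly upstream of the TSS of ZIPIC (chr3R:30036871-30036970) and of dwg (chrX:2727598-2727697). All are reference-strand sequence of dm6 from RefSeq and free of annotated exons. Capitals mark runs of at least 6 bases made only of A and T.
Cp190 and CG4338: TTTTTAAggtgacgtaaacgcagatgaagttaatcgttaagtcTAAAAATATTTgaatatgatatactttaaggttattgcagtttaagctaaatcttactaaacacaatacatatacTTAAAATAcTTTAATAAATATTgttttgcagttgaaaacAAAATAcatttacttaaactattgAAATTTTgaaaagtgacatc
mod(mdg4) and tin: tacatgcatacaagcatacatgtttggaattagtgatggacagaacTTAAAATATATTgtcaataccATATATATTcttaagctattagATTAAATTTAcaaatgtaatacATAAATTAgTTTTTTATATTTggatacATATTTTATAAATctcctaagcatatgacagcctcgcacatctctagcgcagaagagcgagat
su(Hw) and Polr2I: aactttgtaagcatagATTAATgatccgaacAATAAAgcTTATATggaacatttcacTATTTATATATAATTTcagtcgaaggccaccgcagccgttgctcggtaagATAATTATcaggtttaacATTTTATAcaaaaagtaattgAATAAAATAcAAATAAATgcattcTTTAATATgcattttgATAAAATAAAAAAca
Ibf2 and Ibf1: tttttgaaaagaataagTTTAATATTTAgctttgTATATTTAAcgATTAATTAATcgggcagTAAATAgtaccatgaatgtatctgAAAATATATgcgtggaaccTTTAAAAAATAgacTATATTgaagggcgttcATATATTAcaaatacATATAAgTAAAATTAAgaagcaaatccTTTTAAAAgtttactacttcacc
ZIPIC: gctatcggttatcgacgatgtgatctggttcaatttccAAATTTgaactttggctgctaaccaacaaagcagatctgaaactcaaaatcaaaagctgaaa
dwg: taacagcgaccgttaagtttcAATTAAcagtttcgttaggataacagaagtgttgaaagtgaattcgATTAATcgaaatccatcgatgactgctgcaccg

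The window at Cp190 held 76.6% A or T that at mod(mdg4) 71.1% and that at su(Hw) 73.1%, against a mean of 65.7% for windows of 201 bp on all IDR summits. The gap of Ibf2 and Ibf1, with no pooled peak, held 74.6% and 11 such runs, against 6 runs at the Cp190 summit. The A/T content of the gap without a pooled peak lay between those of the windows at mod(mdg4) and Cp190. The 100 bp upstream of ZIPIC and dwg held 62.0% and 61.0%, beside a mean of 58.8% upstream of all protein-coding genes.

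Cp190 (FBgn0000283; 3R, 15270432 to 15275241, minus strand), the cofactor shared by many fly insulator proteins, had the strongest peak of the 10 genes. The peak (3R, 15275184 to 15275595, 412 bp) ranked 309 of 7769 in the IDR list with a signal value of 2915. It ranked 341 in replicate 1, 238 in replicate 2 and 476 in replicate 3. The peak was thus among the strongest 500 of every list. Its summit was intergenic, 137 bp upstream of a TSS of Cp190 and 144 bp from the TSS of CG4338. Those genes point away from each other across a gap of 280 bp, so the summit fell near the middle of a shared promoter region and cannot be given to Cp190 alone. Replicate summits lay 10, 8 and 25 bp from the IDR summit, and no other summit of any list lay in the 4810 bp of Cp190 or within 2 kb of it.

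The other BTB cofactor gene, mod(mdg4) (FBgn0002781; 3R, 21350846 to 21377401, minus strand), carried the next strongest peak, but at the promoter of its neighbour. The peak (3R, 21378582 to 21378907, 326 bp) ranked 651 in the IDR list and 762, 533 and 1094 in replicates 1, 2 and 3. Its summit was 1345 bp upstream of the TSS of mod(mdg4) and 231 bp upstream of that of tin, which encodes Tinman, the NK homeobox factor needed for heart and visceral muscle. The genes are head to head, 1575 bp apart. Replicate summits lay 3, 4 and 10 bp from the IDR summit. At the TSS of mod(mdg4) itself the pooled list held a weaker peak, rank 9256, with its summit 23 bp downstream in the 5′ UTR, outside the IDR list. Overlapping peaks ranked 9556, 9735 and 11567 in replicates 1, 2 and 3, so a weak peak at this TSS recurred in all 3.

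Inside mod(mdg4), which spans 26556 bp with 22 annotated transcripts from 1 TSS and is known for joining its common 5′ exons to alternative 3′ exons by trans-splicing, some replicate peaks had no pooled counterpart. Replicate 2 held a peak of rank 934, with a signal value of 691.9, whose summit was 11964 bp downstream of the TSS and 51 bp inside the annotated 5′ UTR of the precursor gene pre-mod(mdg4)-E. No peak of the pooled list, replicate 1 or replicate 3 overlapped it. Of the 1000 strongest peaks of replicate 2, 5 (0.5%) lacked a pooled peak. A further site, in an intron of mod(mdg4), ranked 5699 in replicate 1 and 6338 in replicate 2, and overlapped no peak of replicate 3 or the pooled list. Its summit in replicate 2 was 3732 bp downstream of the TSS of mod(mdg4). That summit was 94 bp from the TSSs of the precursor genes pre-mod(mdg4)-AA and pre-mod(mdg4)-N, and the replicate 1 summit was 143 bp from them. Among peaks of replicate 1 as strong as the IDR list is long that also overlapped such a peak of replicate 2, 53 of 6514 (0.814%) lacked a pooled peak. The first of these 2 sites rests on replicate 2 alone and the second on replicates 1 and 2. A pooled peak of rank 8960 lay in the first part of the gene, 943 bp downstream of the TSS, with overlapping replicate peaks at ranks 13504, 7307 and 21044. Beyond the 3′ end, a pooled peak of rank 9861 lay 132 bp upstream of the TSS of the next gene, aus, with overlapping replicate peaks at ranks 24285, 9092 and 4529. Replicate 3 ranked it highest, whereas at tin replicate 3 gave the lowest position.

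BEAF-32 (FBgn0015602; 2R, 14770469 to 14772630, plus strand), which encodes a boundary element-associated factor with a BED finger, had an IDR peak of middle strength at its promoter. The peak (2R, 14770163 to 14770606) ranked 3900 in the IDR list and 4172, 3841 and 5787 in replicates 1, 2 and 3. Its summit lay 84 bp upstream of the first TSS of BEAF-32, in an exon of the antisense gene asRNA:CR42254. The 3 replicate summits were 1, 4 and 33 bp away. Around it the pooled list held weaker peaks. One of rank 9137 lay 71 bp upstream of the TSS of Spred, which encodes an inhibitor of MAP kinase signalling, in the gap between the head-to-head genes BEAF-32 and Spred. Another of rank 12359 lay 35 bp from a TSS of asRNA:CR42254 and 41 bp upstream of an internal TSS of BEAF-32. It overlapped peaks of replicates 1 and 2 only. The weakest, of rank 17123, lay in the 3′ UTR of the convergent gene kn.

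CTCF (FBgn0035769; 3L, 7353578 to 7356713, minus strand) encodes the fly counterpart of the vertebrate zinc finger insulator protein. Among the replicate lists, its IDR peak was matched by a peak of replicate 2 only. The peak (3L, 7356385 to 7356828) ranked 4530 in the IDR list, and its summit was 106 bp downstream of the single TSS, in the 5′ UTR. In replicate 2 it ranked 4010, with a summit 8 bp away. No peak of replicates 1 or 3 overlapped it, and their nearest summits were 3669 and 3875 bp distant. Such support was rare, as 18 of the 7769 IDR peaks (0.232%) were overlapped by a peak of replicate 2 only. The pooled list held a further peak of rank 18059 with its summit 104 bp upstream of the TSS, and replicate 2 one of rank 15231 with its summit 122 bp upstream. Among the replicate lists the peak at CTCF thus rests on 1 library.

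The gene su(Hw) (FBgn0003567; 3R, 14304455 to 14308589, minus strand) encodes the zinc finger protein that binds the gypsy insulator. It had no IDR peak in range, and the nearest IDR summit (rank 6550) lay 4358 bp beyond its 3′ end. A pooled peak of rank 7879 stood in the 499 bp gap between su(Hw) and Polr2I, a head-to-head neighbour that encodes a subunit of RNA polymerase II. That rank is just beyond the 7769 of the IDR list, whereas pita, at 6024, is the weakest of the 5 genes inside it. Its summit was 290 bp upstream of the TSS of su(Hw) and 210 bp from that of Polr2I. The overlapping peaks ranked 6242, 9549 and 8758 in replicates 1, 2 and 3, so this weak site was present in each replicate. Replicate 2 alone had another, of rank 12066, 494 bp downstream of the TSS in the 5′ UTR.

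Of the ZAD genes, pita (FBgn0034878; 2R, 23548967 to 23554712, minus strand) was the one with peaks. Its IDR peak (2R, 23547873 to 23548316, rank 6024) lay 872 bp beyond the 3′ end, 56 bp downstream of the TSS of wmd and 144 bp from that of levy, which encodes a cytochrome c oxidase subunit. The overlapping peaks ranked 6226, 4747 and 13500 in replicates 1, 2 and 3, the widest spread of the 4 IDR peaks seen in every replicate (mean rank 8158 ± 4685, SD, n = 3). At the promoter of pita the pooled list held a peak of rank 10047, 68 bp upstream of the TSS, and the overlapping peaks ranked 8811, 9827 and 15308. A pooled peak of rank 10656 lay 156 bp downstream of the internal TSS of pita and 82 bp downstream of that of Dcp-1, an effector caspase gene that overlaps pita on the opposite strand, with ranks 8889, 10419 and 11267. The 7 pooled peaks in range of pita were the most of any of the 10 genes, beside 5 at mod(mdg4) and 4 at BEAF-32, and none of the 6 others was in the IDR list.

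ZIPIC (FBgn0039740; 3R, 30035240 to 30036870, minus strand) and dwg (FBgn0000520; X, 2727698 to 2730042, plus strand), the other ZAD genes, had no summit in range in any list. The nearest IDR summit was 9413 bp from ZIPIC, at the ribosomal protein gene RpL32 (rank 1778, 122 bp from its TSS), and 14203 bp from dwg, at the syntaxin gene Syx4 (rank 1195, 169 bp from its TSS). ZIPIC spans 1631 bp and dwg 2345 bp, beside a median of 2166 bp for all protein-coding genes, and they lie 132 and 129 bp from their upstream neighbours ocn and vilya, which are on the same strand. Ibf1 (FBgn0037670; 3R, 9258964 to 9260400, plus strand) and Ibf2 (FBgn0037669; 3R, 9257727 to 9258501, minus strand), which encode BED finger proteins that act with Cp190, are head to head with a gap of 462 bp, a layout like that of Cp190 and CG4338. They had summits in replicate 2 only, one of rank 14568 located 111 bp downstream of the TSS of Ibf1 and one of rank 20494 located 5 bp upstream of that of Ibf2. The nearest IDR summit was 10653 bp from Ibf2 (rank 3296).

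**Figure D2:**
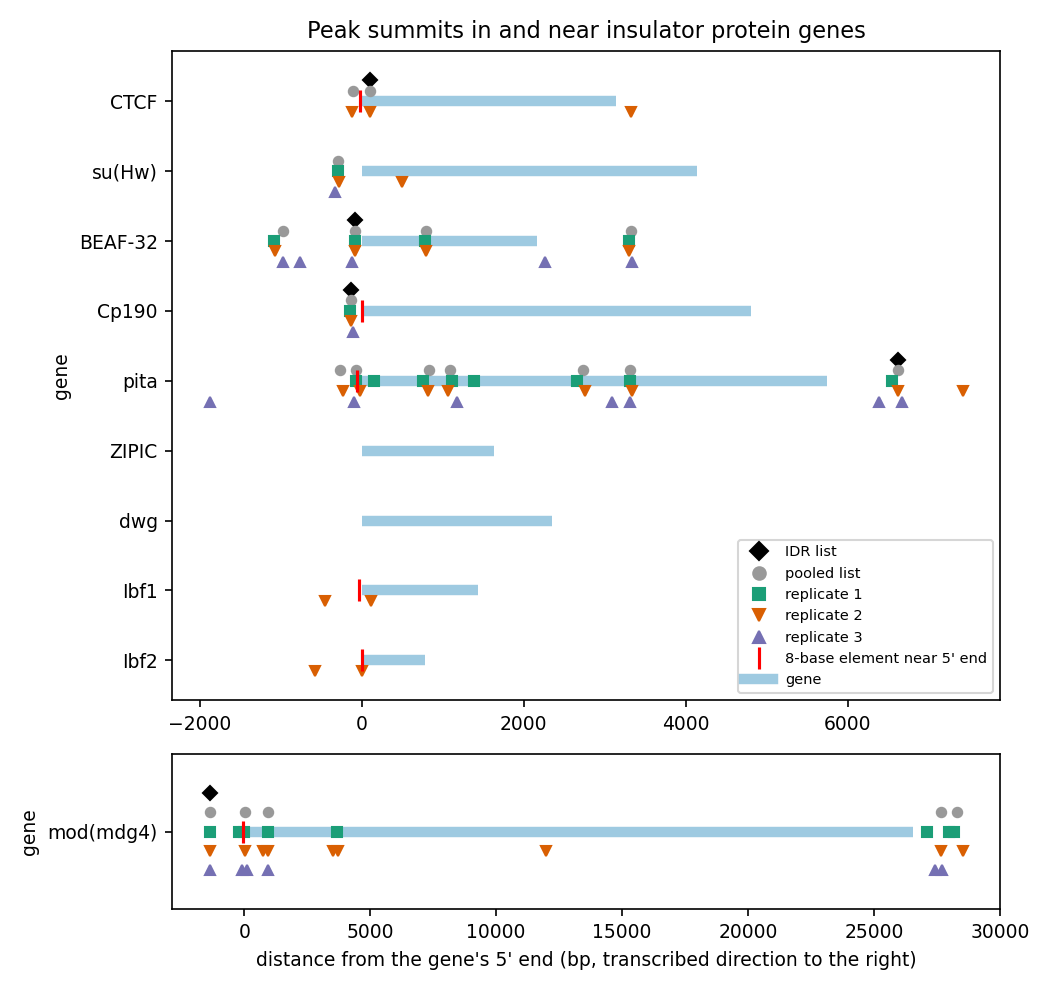
Summits of the IDR, pooled and replicate lists by distance (bp) from the 5′ end of each gene, with transcription to the right, the gene as a blue bar and a red tick at the 8-base element TATCGATA within 100 bp of the 5′ end. IDR summits lie within 250 bp of the 5′ end at CTCF, BEAF-32 and Cp190, 1345 bp upstream at mod(mdg4) and beyond the 3′ end at pita, and the rows of ZIPIC and dwg are empty.

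Replicates differed in which of these genes they marked. Among as many of the strongest peaks of each replicate as the IDR list holds, 5 genes had a summit in range in replicate 1 (37.2% of all protein-coding genes), 5 in replicate 2 (41.2%) and 3 in replicate 3 (35.7%), a mean of 4.33 ± 1.15 (SD, n = 3). Cp190, mod(mdg4) and BEAF-32 were in all 3, pita in replicates 1 and 2, su(Hw) in replicate 1 and CTCF in replicate 2. Mean ranks were 352 ± 119 for the peak at Cp190, 796 ± 282 for that between mod(mdg4) and tin, and 4600 ± 1041 for that at BEAF-32 (SD, n = 3 each). The ranges of the first 2, 238 to 476 and 533 to 1094, did not overlap each other or that of BEAF-32, 3841 to 5787, while the range of pita, 4747 to 13500, overlapped that of BEAF-32. In each of these 4 peaks replicate 2 gave the highest position and replicate 3 the lowest.

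**Figure D3:**
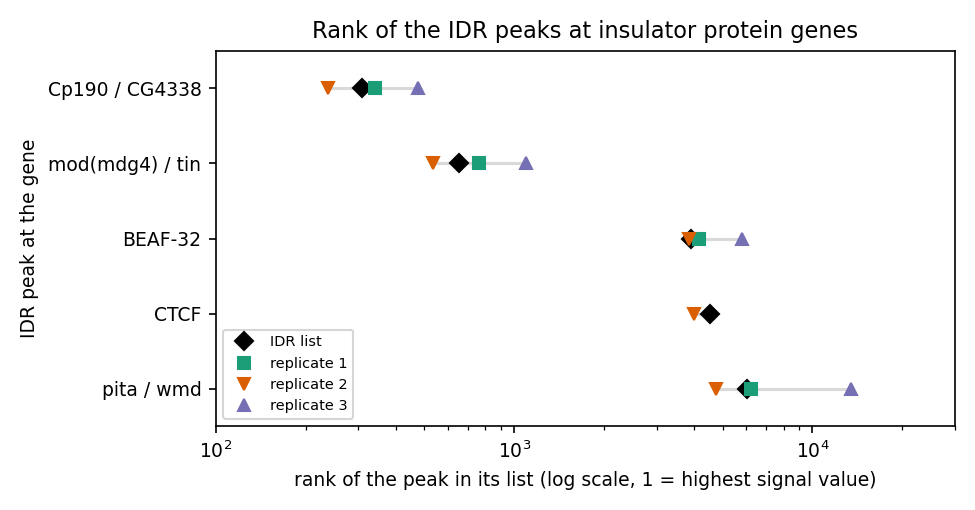
Rank (log scale, 1 = highest signal value) in the IDR list and the 3 replicate lists of the IDR peaks at insulator protein genes, with the neighbour named where the summit is near its TSS. The peaks at Cp190 (238 to 476) and mod(mdg4) (533 to 1094) stay apart from the others, and CTCF has a point in replicate 2 only.

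At 4 of the 5 IDR peaks the A/T content around the summit was above the mean of all IDR peaks. The median of all IDR peaks, 69.3%, was also above that mean, so a value above it is common. Over 50 bp to either side of the summit the content was 85.1% at mod(mdg4), 79.2% at Cp190, 76.2% at BEAF-32, 73.3% at pita and 62.4% at CTCF, a mean of 75.2%. All IDR peaks had a mean of 67.5% and quartiles of 61.4% and 74.3%. At least as rich as the peak at mod(mdg4) were 1.07% of all IDR peaks, and 9.47% were at least as rich as that at Cp190. CTCF, at which 74.4% were at least as rich, lay below the median of 69.3%. Among the 7769 strongest peaks of each replicate, the 6, 9 and 4 summits at these genes in replicates 1, 2 and 3 gave means of 75.7%, 69.3% and 74.8% (73.3% ± 3.47, SD, n = 3), beside 67.0%, 67.8% and 66.0% for all such peaks. Over all 30000 peaks of each replicate, the 22, 29 and 20 summits at these genes gave 64.5%, 63.5% and 66.5%, beside 63.1%, 63.5% and 62.6% for all peaks. Over 100 bp to either side the mean of the 5 fell to 67.4%, beside 65.7% for all IDR peaks. No test was made, as peaks are not replicates.

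**Figure D4:**
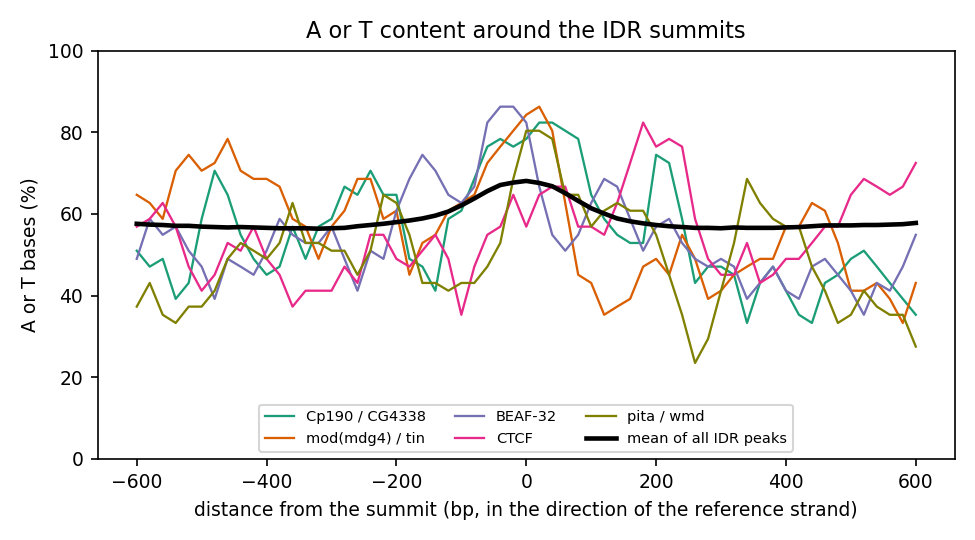
A or T content (%) by distance (bp) from the summit for the 5 IDR peaks at insulator protein genes (thin lines) and the mean of all 7769 IDR peaks (thick black line). At the summit itself mod(mdg4) stands at 84.3%, BEAF-32 at 82.4%, pita at 80.4% and Cp190 at 78.4%, above the black line at 68.1%, and CTCF at 56.9%, below it.

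The 5′ ends of the insulator protein genes often held the palindrome TATCGATA, known as the DNA replication-related element and bound by the factor DREF. It holds CGATA, letters that BEAF-32 also recognises. Within 100 bp of the 5′ end, 6 of the 10 genes had TATCGATA (CTCF, Cp190, mod(mdg4), pita, Ibf1 and Ibf2), against 7.84% of all protein-coding genes. CGATA on either strand was present at 9 of the 10, all but BEAF-32, against 39.4%. The element was in 11.9% of the 2136 genes with an IDR promoter summit and in 7.1% of the 11809 others. It was at 1.87% of all IDR summits within 100 bp, and at 1 of the 5 at these genes, that of pita at wmd. CGATA was near 2 of the 5 summits (CTCF and pita), against 24.4% of all. GAGAG, on either strand, occurred at none of the 10 genes' 5′ ends and none of the 5 summits (22.5% of all genes and 20.4% of all IDR summits), and TATAAA at 2 genes and 2 summits (29.2% and 41.0%). These 4 motifs were chosen after sequence at the genes had been seen, so the shares are a description.

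The sites show how close the element lies to the TSS and to D19A summits. They are printed in the direction of transcription, with 10 bases to either side and the element in capitals, from dm6 by RefSeq: CTCF (chr3L:7356727-7356734, minus strand), Cp190 (chr3R:15275238-15275245, minus), mod(mdg4) (chr3R:21377448-21377455, minus), Ibf1 (chr3R:9258924-9258931, plus) and Ibf2 (chr3R:9258501-9258508, minus).
CTCF: ccaatcgaacTATCGATAgctggcggta
Cp190: atcgcatggcTATCGATAgctgccgagc
mod(mdg4): tattttaagcTATCGATAtattgtcact
Ibf1: aaaatggtttTATCGATAtgtcgataca
Ibf2: gatggcatgtTATCGATAcatcggttga

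The element was centred 18 bp upstream of the 5′ end at CTCF, 51 bp at mod(mdg4), 36 bp at Ibf1 and 4 bp at Ibf2. At Cp190, where it was centred 1 bp upstream, it spanned the 5′ end. At Ibf2 its last base was the first base of the gene. At Cp190 the IDR summit was 136 bp from it, and at CTCF 124 bp. At mod(mdg4) the nearest pooled summit was 74 bp away, and at pita, where the element is 65 bp upstream, 3 bp away. At Ibf1 and Ibf2 the element was present with no IDR or pooled summit in range, but the weak replicate 2 summit of rank 20494 (3R, 9258506) fell inside the element of Ibf2.

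Among 21 other genes of insulator and architectural proteins, 5 had an IDR summit within 250 bp of a TSS, against 15.3% of all protein-coding genes, and 8 had one in the gene or within 2 kb, against 38.2%. The strongest was at Chro, which encodes Chromator, a chromodomain protein of interband chromatin (3L, 22878691 to 22879132), with rank 114 in the IDR list and ranks 131, 76 and 247 in the replicates. It ranked above Cp190 in each replicate. The others were Trl, which encodes the GAGA factor (rank 1675), fs(1)h, which encodes a BET bromodomain protein (rank 5057), pzg, which encodes the zinc finger protein Z4 (rank 5854), and SMC1, a cohesin subunit (rank 6206). A/T content at the strongest promoter summit of each gene was 68.3% at Chro and 73.3% at SMC1. It was 48.5% at Trl, 47.5% at pzg and 45.5% at fs(1)h. Those values were below the lowest of the 5 IDR summits at insulator protein genes, 62.4%. Trl and fs(1)h each had 3 promoter summits, of which only the strongest was used. At pzg the replicate ranks were 8024, 3992 and 14214, a spread like that at pita.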

How the data were processed

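ChIP-seq peaks of D19A-eGFP from 3 biological replicates of whole embryos were analysed. Per the record files deposited with the samples, peaks were made on dm6 from the alignments of each replicate, or of all 3 pooled, and 1 control file that they share, and the IDR list from the replicate and pooled lists. Neither labels nor record files name an aligner, a peak caller or an IDR threshold. The authors deposited for each peak a signal value with no stated normalization, a −log10 q-value, which was not used, and a summit offset. Signal only ranked peaks within a list. Lists of 30000 peaks have fixed length, so list length says nothing about binding. Because the control is shared, replicates are not fully independent.

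Gene models came from Ensembl release 115, without transposable elements, and sequence from the RefSeq assembly of Release 6; no peak or gene ends beyond an arm of that assembly. TSSs are those of all annotated transcripts. Replicate ranks given beside an IDR or pooled peak belong to the strongest replicate peak that shares at least 1 bp with it, whose summit may lie elsewhere. The text names every IDR peak in range of the 10 genes, the strongest pooled peak at genes without one, the genes with the nearest TSS or on either side, and those of 21 other architectural genes with a promoter peak; further pooled and replicate peaks were chosen after their values were seen. Members and lists were chosen with earlier results of these data known. No test was made. Flank, promoter window, A/T window, list and replicate choices were varied. Counting of genes and overlaps was tested on simulated data (200 of 200 placed peaks recovered). Computation used Python 3.11.15, numpy 2.4.6, pandas 2.3.3 and matplotlib 3.10.9.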

Additional observations from a re-analysis of the deposited data

How the results depend on the processing

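With 1 group no paired analysis was possible because there is no second group to pair. Of the 10 genes, 5 had an IDR summit in range (5 peaks; 38.2% of all protein-coding genes). With the gene body alone 1 did (1 peak; 15.4%), in the stronger part of the IDR list 2 (2 peaks; 24.9%), and with support among the strongest peaks of every replicate 3 (3 peaks; 29.4%). With the nearest TSS required to be their own there were 3 (3 peaks), for which no share over all genes was computed. With a flank of 5 kb there were 9 peaks at 6 genes (52.0%), and in the pooled list 20 at 6 (55.5%). The IDR list was not remade without a replicate. To leave out replicate 1, 2 or 3, its peaks were filtered for support among the strongest peaks of both other replicates. This filter kept 5725, 5866 or 6310 peaks and gave 3 to 4 genes and 3 to 4 peaks. The share over all genes was then 30.9%, 30.6% and 33.2%. The peak at CTCF, matched in replicate 2 only, could not pass this filter in any case. The peak at pita was lost without replicate 1 and without replicate 2. Genes with a promoter summit, 3 in the IDR list (15.3% of all protein-coding genes), were 5 in the pooled list (31.0%). They were 1 within 100 bp and 1 in the stronger part of the IDR list. Other architectural genes with a promoter summit, 5 of 21 in the IDR list, were 8 in the pooled list, beside the same shares over all genes. They were 2 in the stronger part, 3 with support by every replicate, and 3 to 4 when a replicate was left out by the same filter. For promoter settings other than these 2 lists no share over all genes was computed, so the changes cannot be called particular to these genes. The mean of 4.33 genes per replicate was 2.33 with the stronger part of each list and 4.0 to 5.0 without 1 replicate. The mean A/T content of 75.2% was 67.4% over 100 bp to either side. With the filter that leaves out 1 replicate it was 80.2% without replicate 1, 80.2% without replicate 2 and 78.5% without replicate 3. The peak at CTCF (62.4%) failed that filter each time, and the peak at pita (73.3%) failed it without replicate 1 and without replicate 2. Those were the least A/T-rich of the 5 peaks. Over every replicate peak in range, an alternative chosen after seeing the data, it was 64.8%. Depth is unknown, so an absent peak at ZIPIC or dwg cannot be told apart from one too weak to be listed.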

Other observations

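The pooled peak at the TSS of mod(mdg4) itself (rank 9256) held 45.5% A or T over 50 bp to either side of its summit, against 85.1% at the summit near tin. In each replicate the peak near tin ranked above the one at mod(mdg4).

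At Trl, 3 IDR summits lay within 250 bp of a TSS and 7 in the gene or within 2 kb, and at fs(1)h 3 and 5. Neither east (4 in range) nor Rm62 (1) nor l(3)mbt (1) had one at a promoter.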
